A study of Mus musculus with 16 samples.

Results

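This is an account of 10 carboxylesterase genes of mouse liver, taken by name from the 24411 genes counted: Ces1c, Ces1d, Ces1e, Ces1f, Ces1g, Ces2a, Ces2c, Ces2e, Ces3a and Ces3b. Liver poly-A RNA was sequenced in 4 groups of 4 libraries. The EtOH+MBV group was fed an ethanol diet in the NIAAA chronic and binge model of alcoholic liver injury and given matrix-bound nanovesicles (MBV), which are vesicles held within the extracellular matrix. The EtOH group had the same diet with vehicle. The PF+MBV group was pair-fed a control diet and given MBV, and the PF group was pair-fed and given vehicle. The labels give no strain, sex or age and no source or dose of the MBV. They call the libraries repeats without saying that each came from its own mouse, so p-values measure the spread between these libraries, which may be technical. In bulk tissue, fewer cells of a type and less RNA per cell cannot be told apart.

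Carboxylesterases are serine hydrolases, held mostly in the lumen of the endoplasmic reticulum of hepatocytes, that cleave ester, thioester and amide bonds. They activate or clear many ester drugs, and several of them break down stored triacylglycerol and cholesteryl ester and so bear on very low density lipoprotein (VLDL) output. The human enzyme CES1 also joins ethanol to acyl groups, as in the making of cocaethylene from cocaine. In the mouse the family has expanded by tandem duplication, and nuclear receptors such as PXR and CAR are known to induce Ces2a.

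All 10 genes lie on chromosome 8 (GRCm38, GENCODE M21). The 5 Ces1 genes are on the minus strand of one cluster, from Ces1c at chr8:93099015-93131283 to Ces1g at chr8:93302369-93337308. The Ces2 and Ces3 genes are on the plus strand of another, from Ces2a at chr8:104734003-104741634 through Ces2c at chr8:104847068-104854483, Ces2e at chr8:104926260-104934672 and Ces3a at chr8:105048601-105058413 to Ces3b at chr8:105083753-105093929. The RefSeq promoter table (GRCm38.p6) held 7 of the 10 genes. Of those, 6 are printed, because each of these genes was higher or lower with ethanol in at least 1 comparison that follows. Among them the Ces1 genes went in both directions, as did the Ces2 genes. Each run covers 250 bases before to 50 bases after the start, 5′ to 3′ on the strand of the gene, at chr8:105083505-105083804 (plus) for Ces3b, chr8:104926010-104926309 (plus) for Ces2e, chr8:104733753-104734052 (plus) for Ces2a, chr8:104846818-104847117 (plus) for Ces2c, chr8:93229570-93229869 (minus) for Ces1e and chr8:93337160-93337459 (minus) for Ces1g. Capitals mark matches, on either strand, to the letters searched.
Ces3b: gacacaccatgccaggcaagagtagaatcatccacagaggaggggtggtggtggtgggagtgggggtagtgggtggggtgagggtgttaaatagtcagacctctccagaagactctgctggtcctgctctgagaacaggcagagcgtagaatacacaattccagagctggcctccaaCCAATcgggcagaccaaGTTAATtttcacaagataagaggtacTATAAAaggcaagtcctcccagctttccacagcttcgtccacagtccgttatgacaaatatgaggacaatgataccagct
Ces2e: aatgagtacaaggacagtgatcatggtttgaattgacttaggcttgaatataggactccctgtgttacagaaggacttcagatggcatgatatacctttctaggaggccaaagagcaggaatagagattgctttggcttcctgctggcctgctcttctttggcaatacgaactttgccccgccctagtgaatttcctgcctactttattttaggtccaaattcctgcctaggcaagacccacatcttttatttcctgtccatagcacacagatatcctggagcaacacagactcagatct
Ces2a: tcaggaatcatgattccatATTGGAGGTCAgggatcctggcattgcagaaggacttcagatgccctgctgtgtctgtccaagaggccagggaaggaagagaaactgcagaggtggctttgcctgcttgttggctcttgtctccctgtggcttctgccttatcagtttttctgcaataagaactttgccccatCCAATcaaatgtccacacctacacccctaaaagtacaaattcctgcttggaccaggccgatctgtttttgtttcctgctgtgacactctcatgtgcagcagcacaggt
Ces2c: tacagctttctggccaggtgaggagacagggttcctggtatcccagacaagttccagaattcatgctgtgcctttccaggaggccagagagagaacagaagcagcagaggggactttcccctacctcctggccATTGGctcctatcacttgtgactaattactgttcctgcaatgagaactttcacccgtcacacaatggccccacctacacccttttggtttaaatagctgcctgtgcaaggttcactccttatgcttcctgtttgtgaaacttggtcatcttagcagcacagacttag
Ces1e: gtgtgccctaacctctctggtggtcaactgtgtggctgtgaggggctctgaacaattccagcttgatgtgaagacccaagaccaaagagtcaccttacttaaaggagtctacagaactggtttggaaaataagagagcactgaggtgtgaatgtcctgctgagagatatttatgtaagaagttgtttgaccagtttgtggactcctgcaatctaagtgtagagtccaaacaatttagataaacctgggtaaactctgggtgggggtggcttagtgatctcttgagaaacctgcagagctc
Ces1g: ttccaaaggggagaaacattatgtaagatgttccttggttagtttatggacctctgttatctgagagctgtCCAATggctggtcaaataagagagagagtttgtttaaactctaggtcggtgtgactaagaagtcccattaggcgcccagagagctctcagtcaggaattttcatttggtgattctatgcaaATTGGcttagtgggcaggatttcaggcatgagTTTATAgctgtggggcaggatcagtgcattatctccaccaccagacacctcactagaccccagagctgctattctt

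The letters searched were AGGTCA (a nuclear receptor half-site), TGACNNNGC (the antioxidant response core), TTCNNNGAA (a STAT site), GTTAAT (an HNF1 half-site), CCAAT and TATAAA. The Ces3b promoter held GTTAAT (found in 7.1% of 32851 RefSeq promoters of the same length), TATAAA (13.6%) and the CCAAT box (37.4%). Ces2a was the only one of the 7 with AGGTCA (16.3% of promoters), directly next to a CCAAT match on the other strand. No letters searched were found in the Ces1e and Ces2e windows. TGACNNNGC (12.4% of promoters) and TTCNNNGAA (8.3%) matched none of the 7. Ces2a and Ces2e had 69.4% of 265 aligned bases in common, including the run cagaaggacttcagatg, and Ces2a and Ces2c had 69.1% of 291. Between classes, Ces3b and Ces2e had 65.5% of 249 aligned bases in common, and Ces3b and Ces2a 52.7% of 273. These matches describe the letters only.

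Libraries held between about 15271300 and 20493200 gene counts, and each of the 10 genes had from 233 counts (Ces3b) to 53338 counts (Ces1c) in a library. Values are CPM, read counts scaled to the TMM-adjusted depth of each library. Liver was the tissue by its markers: the 13 hepatocyte markers measured summed to between 109543 and 176941 CPM in every library. The 10 markers of pancreas and intestine, which also make carboxylesterases, summed to 28.5 ± 3.74 CPM in EtOH livers and 119 ± 14.1 CPM in PF livers (SD, n = 4 each), most of it Fabp2 at 20.6 ± 4.12 CPM in EtOH livers and 106 ± 11.8 CPM in PF livers. Cela1, a pancreatic elastase, was at 7.22 ± 1.41 CPM in EtOH livers and 13.2 ± 3.72 CPM in PF livers, and Muc2, an intestinal mucin, at 0.581 ± 0.177 CPM in EtOH livers and 0.0561 ± 0.0413 CPM in PF livers. The other 7 of the list, Cel, Pnlip and Lct among them, were each under 0.498 CPM in every library. Between EtOH and PF livers, where 20.4% of all genes tested were called higher and 19.5% lower by the test described later, 2 of 12 pericentral hepatocyte markers were higher and 8 lower (summed level 2975 to 11758 CPM in EtOH livers, 12662 to 15985 CPM in PF livers), as were 1 and 2 of 10 Kupffer cell markers (206 to 566 CPM in EtOH livers, 561 to 824 CPM in PF livers), 6 and 2 of 10 stellate cell markers (262 to 457 CPM in EtOH livers, 270 to 290 CPM in PF livers) and 2 and 7 of 10 endothelial markers (417 to 506 CPM in EtOH livers, 527 to 608 CPM in PF livers). Of the 13 hepatocyte markers 2 were higher and 0 lower, and of 11 periportal hepatocyte markers tested 2 and 2. Cyp2e1 was the largest part of the pericentral sum, at 4576 ± 2439 CPM in EtOH livers and 9363 ± 1654 CPM in PF livers. C6 was the largest part of the Kupffer cell sum in PF livers, at 348 ± 86.3 CPM, against 39.6 ± 5.62 CPM in EtOH livers. EtOH library 1 was singled out with the values of these genes known. Leaving out the lowest library of a group raises the mean of that group, so fits without it, given below, are not independent of that choice. It was the lowest EtOH library for 10 of the 10 genes, against 34.8% of the 12901 genes tested, and the genes summed to 1863 CPM in it against 5079 to 6500 CPM in the other EtOH libraries. The same library had pericentral hepatocyte markers at 2975 CPM (other EtOH libraries 9792 to 11758), Kupffer cell markers at 566 CPM (206 to 282) and monocyte and macrophage markers at 172 CPM (57.3 to 81.3). EtOH+MBV library 1 was the highest of its group for Ces3a, Ces3b, Ces1e, Ces1f, Ces1d and Ces2e. It too was singled out with these values known. Leaving out the highest library of a group lowers its mean, so fits without it are not independent of that choice either. The part of these markers in the results was not tested.

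Per kilobase of exon, Ces1c had the highest group mean of the 10 genes, Ces3a the second and Ces1d the third in each of the 4 groups. Ces1c, the esterase that mouse liver secretes into plasma, averaged 1123 ± 414 CPM per kb in EtOH livers and 865 ± 60.4 CPM per kb in PF livers (SD, n = 4 each). Ces3b was the lowest of the 10 in EtOH livers, at 20.5 ± 11.1 CPM per kb, and the fourth highest in PF livers, at 252 ± 75.5 CPM per kb. In PF livers the ranges of Ces1c and Ces3a overlapped, as did those of Ces1d and Ces3b and those of Ces1e, Ces1g and Ces2e. In EtOH livers Ces1c, at 526 to 1453 CPM per kb, was apart from Ces3a, at 30.5 to 328 CPM per kb, and below Ces1c the ranges of all neighbours in the order overlapped. Ces2c was last in PF livers, at 13.9 ± 5.82 CPM per kb. In EtOH+MBV livers Ces3b was at 44.2 ± 24.3 CPM per kb, the eighth of the 10, and in PF+MBV livers at 136 ± 8.27 CPM per kb, the fourth.

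**Figure D1:**
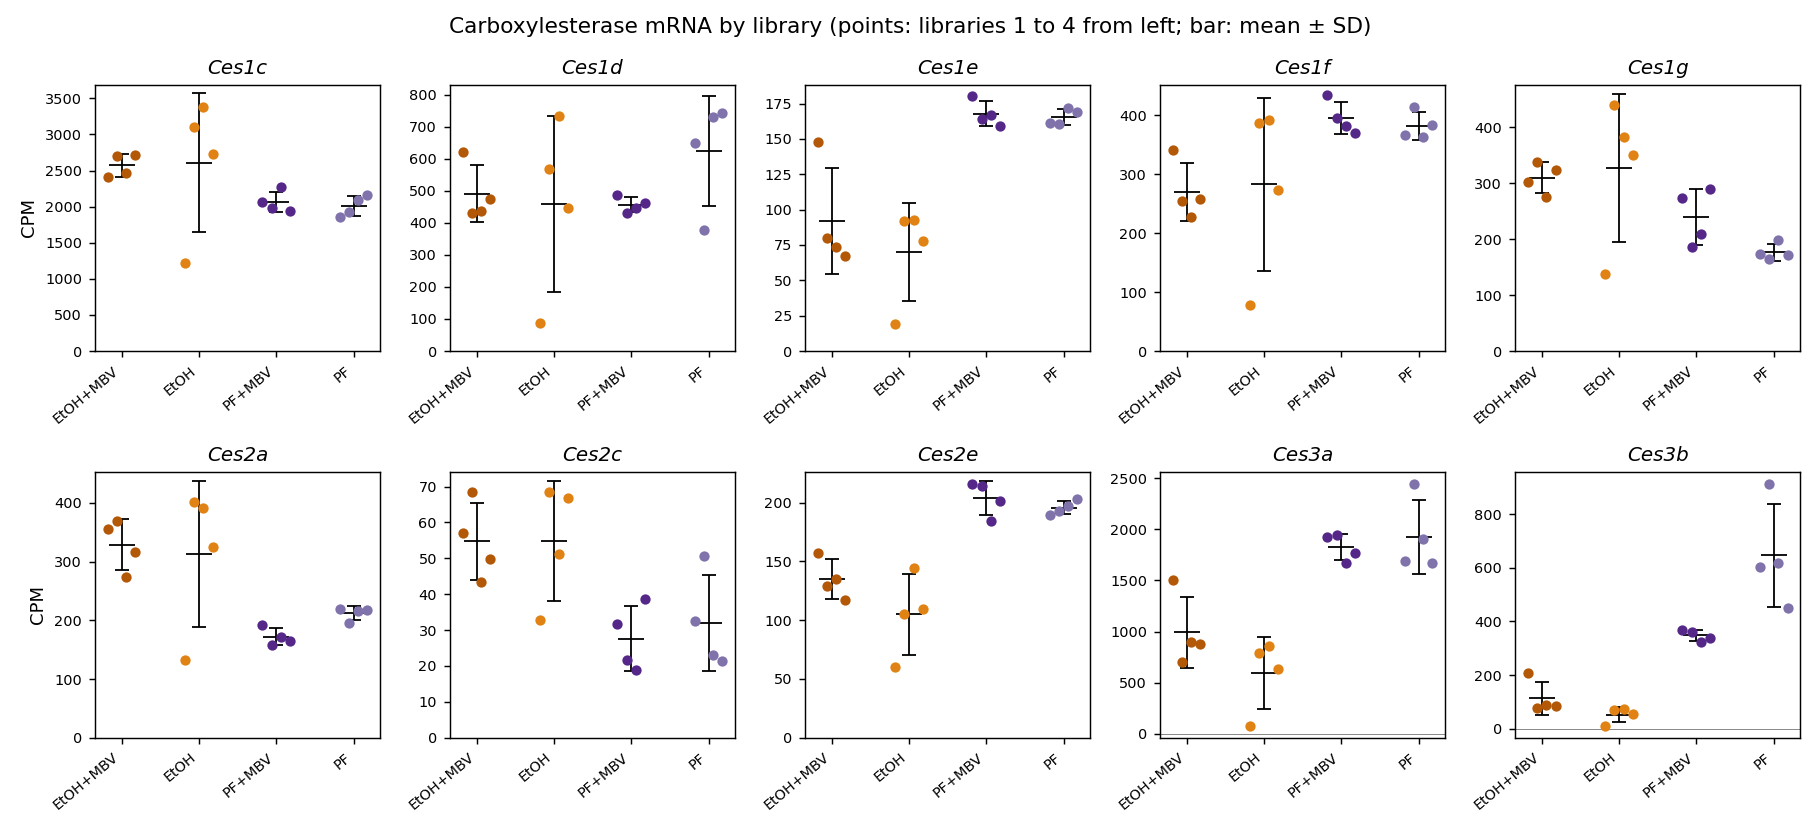
CPM of each carboxylesterase gene (one panel a gene, y axis in CPM from 0) in the 4 libraries of each group, with the mean and SD as a bar. In Ces3b the 4 EtOH libraries sit between 11.3 and 74.2 CPM, all under the 451 to 914 CPM of the PF libraries.

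Among vehicle-treated livers, the called genes of the Ces1 and Ces2 classes went in both directions, while Ces3a and Ces3b were both lower. In the Ces2 class the higher call was that of Ces2c, which was lost in 6 fits that left out 1 library. In the vehicle comparison 4 of the 10 genes were lower in EtOH livers than in PF livers (Ces3b, Ces3a, Ces1e and Ces2e), 2 were higher (Ces1g and Ces2c) and 4 did not pass the test (Ces1c, Ces1d, Ces1f and Ces2a). A gene was called where its p, from the quasi-likelihood test of edgeR and adjusted over the 12901 genes by the Benjamini-Hochberg method, was under 0.05. That test called 39.8% of all genes, 20.4% higher and 19.5% lower, and the groups were apart for 4 of the 10 genes against 32.3% of all genes. The median log2 fold change was −0.44 over the 10 genes and 0.01 over all genes tested. Without EtOH library 1, which was singled out from these same values, 4 genes were higher (Ces1c and Ces2a joined) and 4 were lower. The background was then 19% higher and 19.1% lower, 38.1% in all.

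Ces3a and Ces3b are neighbouring liver esterase genes of the Ces3 class, and both fell. Ces3b had 11.3, 67.9, 74.2 and 56.7 CPM in EtOH livers, against 602, 914, 619 and 451 CPM in PF livers. The groups did not overlap, and EtOH library 1 was the lowest of all. Ces3b fell by 3.62 ± 0.46 on the log2 scale (SE), 12.3-fold, with an edgeR adjusted p of 2.5e-05, and by 3.28 without EtOH library 1. Ces3a had 80.1, 794, 861 and 638 CPM in EtOH livers, against 1690, 2445, 1908 and 1670 CPM in PF livers. Again no EtOH library reached the PF range. Ces3a fell by 1.70 ± 0.45 on the log2 scale (SE; 3.25-fold, edgeR adjusted p = 0.00755), and by 1.33 without EtOH library 1. The pair shares 15.1% to 15.4% of its 75-base exon windows, in which reads cannot be assigned to one gene, and the read length is not stated by the labels.

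The 3 Ces2 genes, whose class prefers esters with a large alcohol group, did not move together. Ces2e had 60.1, 105, 145 and 109 CPM in EtOH livers, against 190, 193, 197 and 203 CPM in PF livers, with no overlap. Its log2 fold change was −0.90 ± 0.18 (SE, edgeR adjusted p = 0.00109), and −0.71 without EtOH library 1. Ces2c, which hydrolyses acylglycerols, had 32.7, 68.5, 51.3 and 66.8 CPM in EtOH livers, against 32.5, 50.6, 23.1 and 21.4 CPM in PF livers, and the groups overlapped. The log2 fold change of Ces2c was 0.78 ± 0.29 (SE, edgeR adjusted p = 0.0401). That call was lost on leaving out any of PF libraries 1, 3 or 4 or EtOH libraries 2, 3 or 4 (adjusted p from 0.0536 to 0.118), and 22.1% of its 75-base exon windows occur in a pseudogene or predicted genes. Ces2a, an acylglycerol hydrolase that PXR ligands induce in mice, had 133, 402, 392 and 326 CPM in EtOH livers, against 219, 196, 217 and 218 CPM in PF livers. EtOH libraries 2, 3 and 4 were above every PF library and EtOH library 1 below. The log2 fold change of Ces2a was 0.56 ± 0.23 (SE, edgeR adjusted p = 0.0655) and, without EtOH library 1, 0.81 with an adjusted p of 5.32e-05.

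Among the Ces1 genes, Ces1e was lower and Ces1g higher. Ces1e encodes egasyn, which holds beta-glucuronidase in the endoplasmic reticulum. It had 19.4, 91.6, 92.6 and 77.6 CPM in EtOH livers, against 161, 161, 172 and 169 CPM in PF livers, with no overlap. Its log2 fold change was −1.24 ± 0.34 (SE, edgeR adjusted p = 0.00883), and −0.92 without EtOH library 1. Ces1g, whose loss in mice leads to obesity and a fatty liver, had 138, 440, 383 and 351 CPM in EtOH livers, against 174, 164, 199 and 171 CPM in PF livers. Only EtOH library 1 kept the groups from separating. The log2 fold change of Ces1g was 0.89 ± 0.25 (SE, edgeR adjusted p = 0.00984), and 1.14 without that library. Its promoter, printed above, shares 59.3% of 263 aligned bases with that of Ces1e. That lies between the values of 2 pairs from different classes, Ces3b with Ces2e (65.5% of 249) and Ces3b with Ces2a (52.7% of 273).

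The remaining 3 Ces1 genes did not pass the test with all libraries. Ces1c had 1222, 3103, 3375 and 2733 CPM in EtOH livers, against 1862, 1923, 2092 and 2161 CPM in PF livers. Here too EtOH library 1 was below every PF library and the other EtOH libraries above. The log2 fold change of Ces1c was 0.38 ± 0.22 (SE, edgeR adjusted p = 0.181) and, without EtOH library 1, 0.61 with an adjusted p of 0.000302. Ces1d, the triacylglycerol hydrolase that mobilises stored fat for VLDL, had 88.5, 568, 733 and 447 CPM in EtOH livers, against 650, 376, 731 and 741 CPM in PF livers. With −0.44 ± 0.39 (SE) on the log2 scale and a 95% interval from −1.28 to 0.39, a difference in Ces1d of either sign was within the error. Ces1f, its close relative, gave −0.43 ± 0.31 (SE), with a 95% interval from −1.10 to 0.23. Without EtOH library 1 these values were −0.10 ± 0.21 for Ces1d and −0.12 ± 0.14 for Ces1f.

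**Figure D2:**
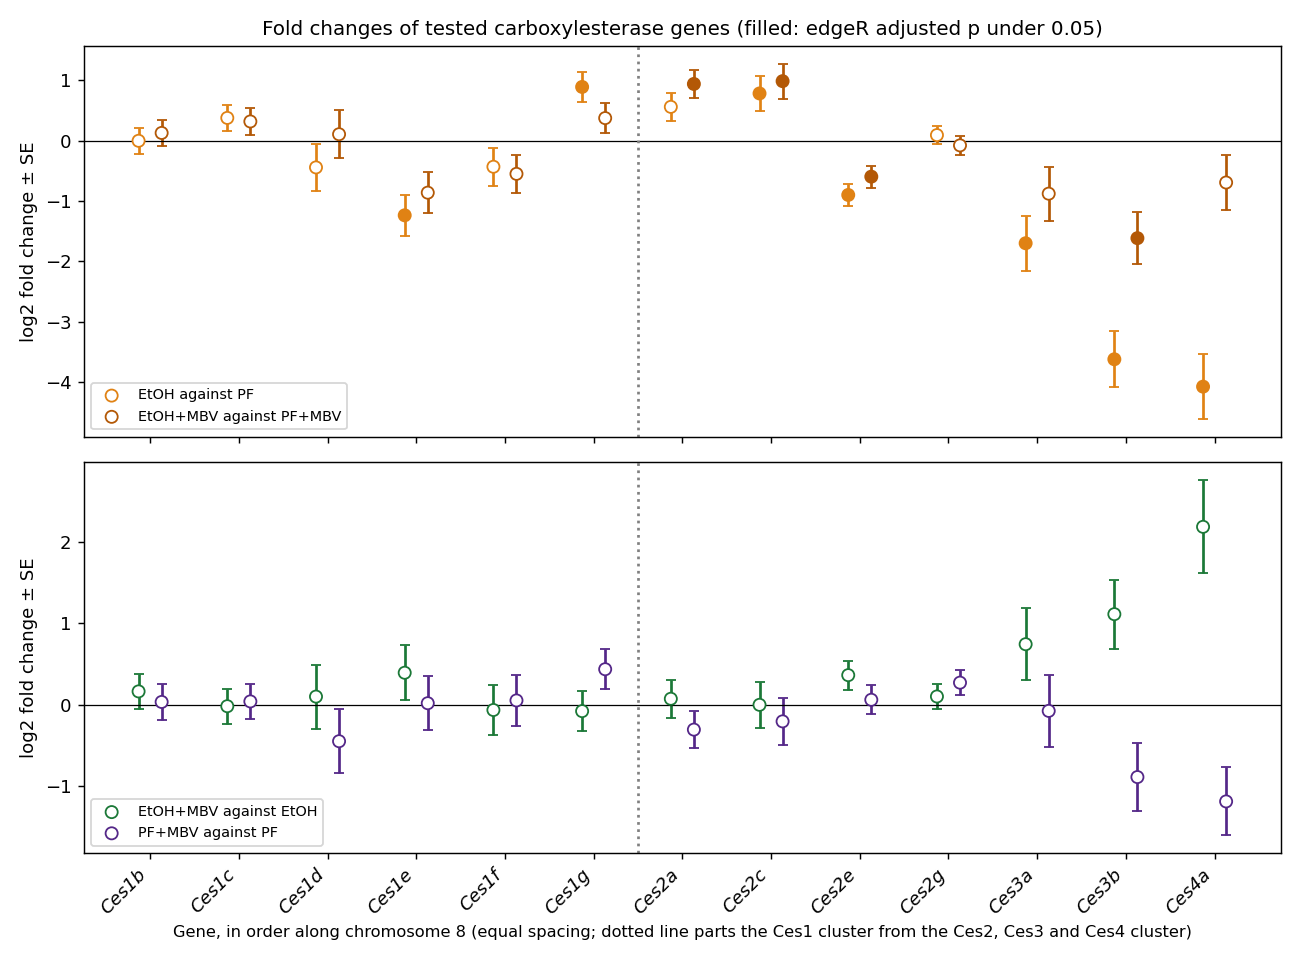
Log2 fold changes of the tested carboxylesterase genes with their SE (y axis, log2 scale; genes along the x axis in chromosome order) for diet (upper panel) and MBV (lower panel), filled where the edgeR adjusted p was under 0.05. Ces3b at −3.62 and Ces4a at −4.08 lie farthest from 0 for ethanol with vehicle, and no gene of the 10 is filled for MBV on either diet.

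The shares that 7 of the 10 genes took of the summed carboxylesterase mRNA were apart between EtOH and PF livers. Those of Ces1d, Ces1f and Ces2e overlapped, as did the sum. Shares of a sum are tied, so lower shares of Ces3a and Ces3b go with higher shares of other genes. No such count of shares was made over all genes. By CPM, the groups were apart for 4 of the 10 genes, against 32.3% of all genes. The 10 genes summed to 4867 ± 2088 CPM in EtOH livers and 6373 ± 388 CPM in PF livers (SD, n = 4 each). Ces1c made up 55.7% ± 6.66 of that sum in EtOH livers and 31.6% ± 2.79 in PF livers. Ces3a made up 10.8% ± 4.36 in EtOH livers and 30.1% ± 3.89 in PF livers, and Ces3b 0.998% ± 0.262 in EtOH livers and 10.1% ± 2.52 in PF livers. Ratios of close relatives within a library were apart between the diets, EtOH library 1 included. Ces2a over Ces2e was 2.21 to 3.82 in EtOH livers and 1.02 to 1.15 in PF livers, Ces1g over Ces1e was 4.13 to 7.09 in EtOH livers and 1.01 to 1.16 in PF livers, and Ces3a over Ces3b was 7.10 to 11.7 in EtOH livers and 2.68 to 3.71 in PF livers. These shares and ratios were picked with the values known and carry no test.

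**Figure D3:**
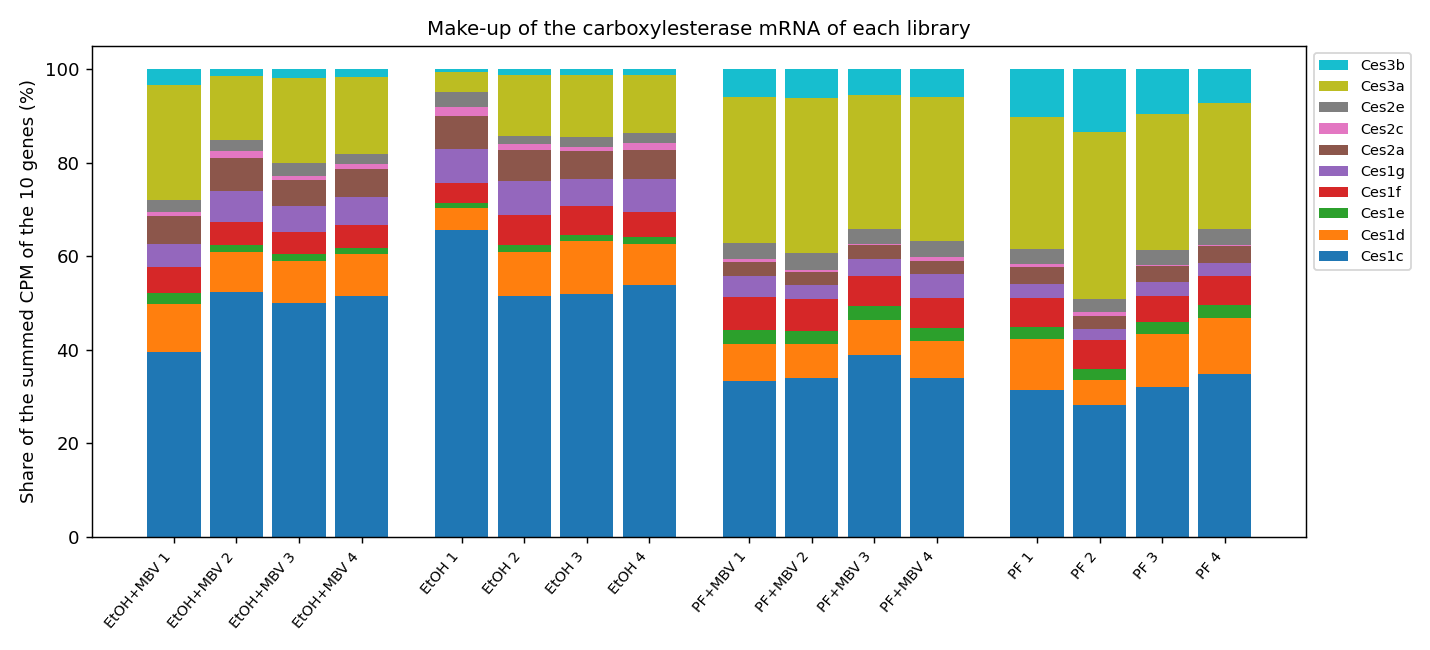
Share of the summed CPM of the 10 genes held by each gene (y axis, %) in each of the 16 libraries. Ces1c takes 51.5% to 65.6% of the EtOH bars and 28.1% to 34.9% of the PF bars.

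The group means of the diet comparison among MBV-treated livers come from no library of the vehicle comparison. The scaling and the spread behind the calls were estimated over all 16 libraries, so the calls of the 2 comparisons are not independent. Of the 10 genes, 9 had the same sign in both comparisons (Ces1d differed), as did 71.9% of all genes tested. Called the same way in both were 3 of the 10 (Ces2c, Ces2e and Ces3b), against 19.9% of all genes. In EtOH+MBV livers Ces2a and Ces2c were higher and Ces2e and Ces3b lower than in PF+MBV livers, and 6 genes did not pass the test. The background was 35.9% of genes called, 19.2% higher and 16.7% lower. Ces3b had 207, 76.1, 87.8 and 83.2 CPM in EtOH+MBV livers, against 370, 361, 324 and 337 CPM in PF+MBV livers, which did not overlap. The log2 fold change of Ces3b was −1.62 ± 0.43 (SE, edgeR adjusted p = 0.00804), and −2.07 without EtOH library 1 and EtOH+MBV library 1. Ces2a had 356, 370, 274 and 317 CPM in EtOH+MBV livers, against 192, 158, 171 and 166 CPM in PF+MBV livers. It rose by 0.94 ± 0.23 on the log2 scale (SE, edgeR adjusted p = 0.00567), with no overlap between groups. Ces2c was higher by 0.99 ± 0.29 (SE, edgeR adjusted p = 0.0147).

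Ces2e had 157, 129, 135 and 117 CPM in EtOH+MBV livers, against 216, 214, 185 and 201 CPM in PF+MBV livers, again apart. Its log2 fold change was −0.60 ± 0.18 (SE, edgeR adjusted p = 0.0168), with an adjusted p of 0.0572 on leaving out EtOH+MBV library 4. Ces3a had 1500, 698, 901 and 875 CPM in EtOH+MBV livers, against 1921, 1946, 1671 and 1772 CPM in PF+MBV livers. No EtOH+MBV library reached the PF+MBV range, but its log2 fold change of −0.88 ± 0.45 (SE) had an edgeR adjusted p of 0.133. Without EtOH library 1 and EtOH+MBV library 1 it was −1.14 with an edgeR adjusted p of 1.5e-05. That setting was chosen with these values known. Ces1e had 148, 80.1, 73.3 and 67.3 CPM in EtOH+MBV livers, against 180, 164, 167 and 159 CPM in PF+MBV livers. Its log2 fold change of −0.86 ± 0.34 (SE) had an edgeR adjusted p of 0.055. It was −1.19 with an edgeR adjusted p of 0.0103 without EtOH+MBV library 1. That library was the highest of its group for Ces3a and Ces1e, so leaving it out lowers the group mean of both. Groups were apart for 8 of the 10 genes, against 39% of all genes. With EtOH library 1 and EtOH+MBV library 1 left out, 4 genes were higher and 5 lower. The background was then 24.9% higher and 23.3% lower, 48.2% in all. In that setting 8 genes were called the same way in both diet comparisons (27.5% of all genes were). Both libraries were singled out from these same values, so these counts are not independent of that choice.

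MBV given with ethanol were set against ethanol alone. None of the 10 genes passed the edgeR test between EtOH+MBV and EtOH livers, against 2.69% of all genes, and 1 gene, Ces3b, had an unadjusted p under 0.05. DESeq2 and limma voom called 0 of the 10, where over all genes they called 905 and 143. Ces3b averaged 113 ± 62.4 CPM in EtOH+MBV livers and 52.5 ± 28.4 CPM in EtOH livers (SD, n = 4 each), and the lowest EtOH+MBV library, at 76.1 CPM, was just above the highest EtOH library, at 74.2 CPM; groups were apart for 1 of the 10 genes, against 7.6% of all genes. Its log2 fold change was 1.11 ± 0.42 (SE), with an edgeR adjusted p of 0.143 and a 95% interval from 0.22 to 2.01. It was 0.78 without EtOH library 1 and 0.31 ± 0.18 (SE, edgeR adjusted p = 0.359) without EtOH library 1 and EtOH+MBV library 1. Ces3a averaged 994 ± 349 CPM in EtOH+MBV livers and 593 ± 355 CPM in EtOH livers, a log2 fold change of 0.74 ± 0.44 (SE, 95% interval −0.20 to 1.68), and of 0.11 ± 0.15 without those 2 libraries. Of the genes called higher with ethanol, Ces1g averaged 310 ± 27.3 CPM in EtOH+MBV livers and 328 ± 132 CPM in EtOH livers, with a 95% interval of the log2 difference from −0.60 to 0.44.

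On the pair-fed diet the Ces3b groups were again apart. None of the 10 genes passed the edgeR test between PF+MBV and PF livers, against 1.78% of all genes, and 1 gene, Ces3b, had an unadjusted p under 0.05. DESeq2 called 0 of the 10 and limma voom 1 (Ces3b), where over all genes they called 665 and 2494. Ces3b averaged 348 ± 21.2 CPM in PF+MBV livers and 646 ± 194 CPM in PF livers (SD, n = 4 each), with no overlap. Its log2 fold change was −0.89 ± 0.42 (SE, edgeR adjusted p = 0.29). Ces2a averaged 172 ± 14.5 CPM in PF+MBV livers and 212 ± 11.2 CPM in PF livers, also without overlap, which held for 15% of all genes. An edgeR fit of only these 8 libraries called Ces2a (−0.31, adjusted p = 0.0352) and Ces3b (−0.89, adjusted p = 0.0115) lower. That fit called 1119 genes in all. Ces1g averaged 239 ± 49.9 CPM in PF+MBV livers and 177 ± 15.1 CPM in PF livers, a log2 fold change of 0.44 ± 0.25 (SE, edgeR adjusted p = 0.40).

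The interaction asks whether the MBV difference was itself different between the diets. None of the 10 genes passed the edgeR test, against 4.11% of all genes, and 1 gene had an unadjusted p under 0.05. DESeq2 and limma voom each called that 1 gene of the 10, where over all genes they called 1113 and 1410. That gene was Ces3b, with an interaction of 2.01 ± 0.59 on the log2 scale (SE), an edgeR adjusted p of 0.065 and a 95% interval from 0.75 to 3.26. It was 1.68 (edgeR adjusted p = 0.0323) without EtOH library 1, where 4.08% of all genes were called. Without EtOH library 1 and EtOH+MBV library 1 it was 1.21 (edgeR adjusted p = 0.0116), where 6.84% were. Both settings were chosen with these values known. With each library left out in turn, the interaction of Ces3b ranged from 1.54 to 2.24 and passed in 2 of those fits. Ces1g had −0.52 ± 0.35 (SE) with all libraries, and −0.76 with an edgeR adjusted p of 0.0381 without EtOH library 1. Of the fits that left out 1 library, Ces1g passed in that 1 only.

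Of 10 other genes of the family that were listed, 9 were in the files and 3 passed the filter on low counts (Ces1b, Ces2g and Ces4a). Ces1b averaged 60.9 ± 21.4 CPM in EtOH livers and 61.0 ± 10.0 CPM in PF livers (SD, n = 4 each), and Ces2g was at 28.0 to 56.8 CPM in EtOH livers and 36.3 to 43.0 CPM in PF livers. Ces2f and Ces5a had no count in any of the 16 libraries, which allows up to 0.145 to 0.201 CPM a library. Ces4a, the gene next to Ces3b at chr8:105131800-105150109, had 0.29, 0.17, 0 and 0.26 CPM in EtOH livers, against 2.44, 4.70, 2.84 and 3.17 CPM in PF livers. It had 1.21, 0.20, 1.40 and 0.69 CPM in EtOH+MBV livers and 1.76, 1.35, 1.25 and 1.38 CPM in PF+MBV livers. All 4 EtOH libraries were under every PF library. The log2 fold change of Ces4a between EtOH and PF livers was −4.08 ± 0.53 (SE, edgeR adjusted p = 3.2e-05). That fit rests on few counts, at most 75 in a library. Its interaction was 3.38 ± 0.71 (SE, edgeR adjusted p = 0.0203). Ces1b and Ces2g did not pass the test with ethanol, with 95% intervals of the log2 difference from −0.47 to 0.46 and from −0.23 to 0.42.

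**Figure D4:**
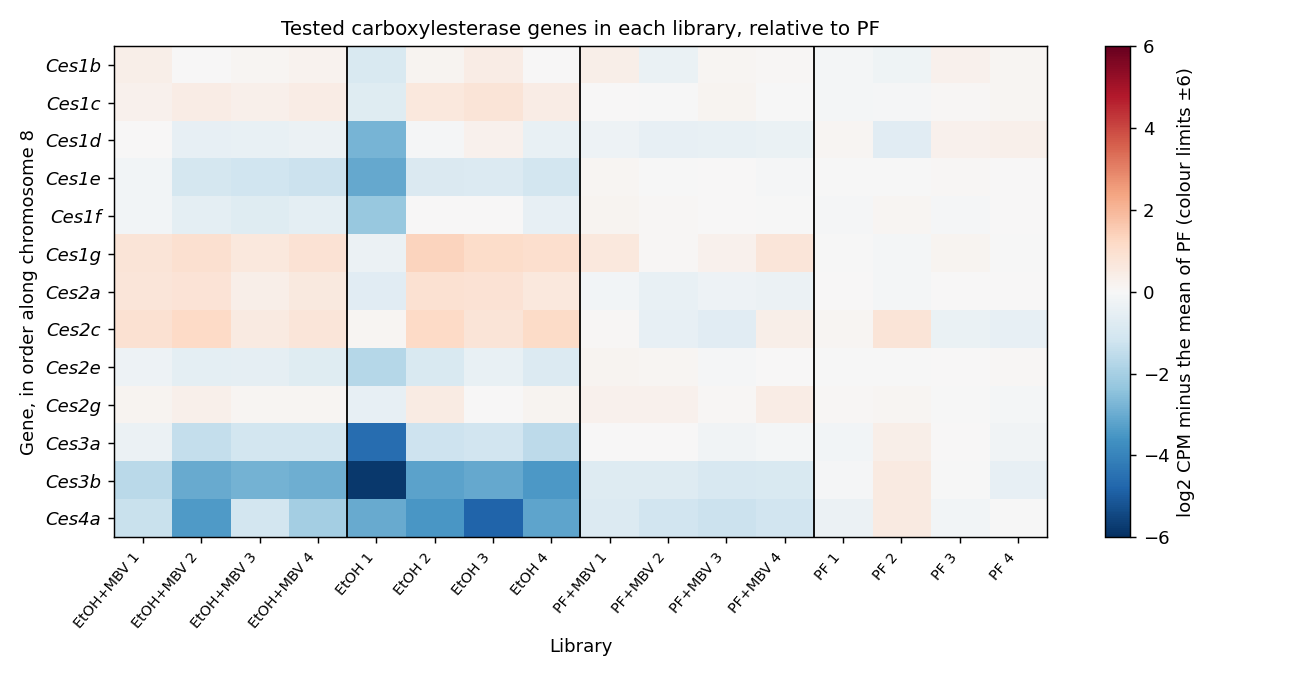
Log2 CPM of the tested carboxylesterase genes in each of the 16 libraries minus the PF mean (colour, limits ±6; genes in chromosome order). The Ces3 genes and Ces4a are low across the EtOH libraries, and EtOH library 1 is lowest in its group for each of the 10 genes.

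Other enzymes and factors around the carboxylesterases were read from lists. Of 30 other ester, amide and lipid hydrolases, 4 were higher and 12 lower in EtOH than in PF livers, against 20.4% higher and 19.5% lower of all genes. Ephx1, the microsomal epoxide hydrolase, averaged 1021 ± 292 CPM in EtOH livers and 235 ± 39.1 CPM in PF livers (SD, n = 4 each), a log2 fold change of 2.12 ± 0.23 (SE). Aadac, arylacetamide deacetylase, another endoplasmic reticulum esterase, averaged 227 ± 63.7 CPM in EtOH livers and 467 ± 17.0 CPM in PF livers. Pnpla7 (−0.98) and Ephx2 (−1.24) were also lower. Of 16 genes of triacylglycerol synthesis and VLDL assembly, 1 was higher (Tm6sf2, 1.36) and 5 lower, among them Mogat1 (−2.22), Cideb (−0.85) and Agpat2 (−0.65). Of 16 regulators, 1 was higher and 6 lower. The median log2 fold change was −0.10 over the hydrolases, −0.14 over the triacylglycerol genes and −0.44 over the regulators, and 0.01 over all genes.

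Among those regulators, Ppara, the fatty acid sensor, had a log2 fold change of −1.89 ± 0.31 (SE) and averaged 155 ± 77.0 CPM in EtOH livers and 573 ± 102 CPM in PF livers (SD, n = 4 each). Cebpa, a hepatocyte transcription factor, was at −1.52 ± 0.18, Nr1h3, the oxysterol receptor LXR alpha, at −0.90 ± 0.10, and Ahr, the aryl hydrocarbon receptor, at 0.73 ± 0.15. The genes of the receptors that induce Ces2a did not pass the test: Nr1i2 was at 0.20 ± 0.14 and Nr1i3 at −0.46 ± 0.30. Both were singled out with their values known. In the diet comparison with MBV, 4 hydrolases were higher and 8 lower, 2 triacylglycerol genes were higher and 6 lower, and 2 regulators were higher and 6 lower, against 19.2% higher and 16.7% lower of all genes. Ahr was among those lower, at −0.44 ± 0.15 (edgeR adjusted p = 0.0344), a call that was lost in 5 of the fits that left out 1 library (adjusted p from 0.0717 to 0.116) and without EtOH library 1 and EtOH+MBV library 1 (adjusted p = 0.0615). For MBV on ethanol 1 gene of the 3 lists was called, Nr1h3, against 2.69% of all genes, and for MBV on the pair-fed diet 5 were, all of them higher, against 1.78% of all genes.

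Patterns over the 16 libraries were compared with those of tested genes outside the family by the root mean square difference of centred log2 CPM. Predicted gene models, Rik genes, genes named as pseudogenes and ribosomal protein genes were left out. Pon1, the plasma paraoxonase, was the gene most like Ces1c (0.0557), followed by Gstt1 (0.116) and Adh1 (0.128), where Ces1c itself had an SD of 0.337. Sult2a8 was nearest to Ces3a (0.164), Eci1 to Ces2e (0.112), Cyp2d40 to Ces1f (0.179) and Notum to Ces2a (0.184). Mup20 was nearest to Ces3b at 0.389, and Ces3b itself varied by an SD of 1.64. All these values include EtOH library 1 and were not worked out without it. In log2 CPM relative to the PF mean, Ces1c was at −0.72 in that library and at 0.45 to 0.75 in the other EtOH libraries.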

How the data were processed

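Liver poly-A RNA was sequenced in 16 libraries, 4 in each of 4 groups. The submitters' processing notes list Trimmomatic, STAR and the mm10 build. The authors deposited raw STAR gene counts per library, whose first 4 lines are not genes and were left out (11.6% to 19.9% of counts unmapped, 4.57% to 7.58% multimapping). The annotation behind the deposited counts, and the read length, were not stated. The unstranded counts were used, since the stranded columns split near evenly (50.6% to 51.8%). Genes were taken by symbol.

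Counts were filtered with a minimum of 10 (filterByExpr), scaled by TMM, and tested with edgeR 4.0.16 (R 4.3.3), with 1 mean per group over the 16 libraries and Benjamini-Hochberg adjustment over 12901 genes. Errors of fold changes are SE, taken as the fold change over the square root of F. Alternatives were DESeq2 1.42.0, limma 3.58.1 voom with sample weights, other size factors, no filter, a replicate block, only the groups compared and each library left out. The fits were tested on simulated data. Libraries of 1 group were compared by chi-square over genes, and the statistic per degree of freedom ranged from 8.72 to 166, so none was counted as a repeat of another. Limits from a count of 0 use 3 counts and cover counting error only.

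The 10 genes, and the lists around them, were chosen with earlier results of these data known. Named genes were all 10, the other carboxylesterase genes, up to 4 genes with the smallest p from each list per comparison, and the 3 genes outside the family nearest in pattern to each.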

Additional observations from a re-analysis of the deposited data

Results flagged for a closer look

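Single libraries were looked at for a gap to their nearest neighbour relative to the range of their group, over 13 tested carboxylesterase genes and 4 groups, which is 52 pairs of gene and group. Chance flags about 1 in 20 of these, and 3 were flagged. Ces3b in EtOH+MBV library 1 had 207 CPM, against 76.1 to 87.8 CPM in the other EtOH+MBV libraries, a gap of 0.9106 of the range. Ces1e in the same library had 148 CPM, against 67.3 to 80.1 CPM in the others, a gap of 0.8412. Ces2a in PF library 2 had 196 CPM, against 217 to 219 CPM in the other PF libraries, a gap of 0.8894. In EtOH library 1, which was lowest in its group for each of the 10 genes, no gap was large enough to be flagged.

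Ces4a, the neighbour of Ces3b, passed the edgeR test of the interaction. The interaction was 3.382 on the log2 scale (edgeR adjusted p = 0.0203), with MBV values of 2.19 on ethanol and −1.19 on the pair-fed diet. Neither MBV value passed by itself (edgeR adjusted p = 0.0505 on ethanol and 0.149 on the pair-fed diet). The EtOH libraries held only 6, 3, 0 and 4 counts of Ces4a, near the floor of 3 counts. With each library left out in turn, the interaction ranged from 3.04 to 3.73.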

How the results depend on the processing

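Between EtOH and PF livers, 4 carboxylesterases were lower with each library left out. The 2 higher became 4 with limma voom, 1 with only the groups compared, 4 without EtOH library 1 and EtOH+MBV library 1 (a setting chosen after seeing the data), and 1 (without PF library 1) to 4 (without EtOH library 1) with each library left out.

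Between EtOH+MBV and PF+MBV livers, the 2 higher and 2 lower became 4 and 5 with limma voom, 4 and 5 with only the groups compared, and 4 and 5 without those 2 libraries; with each library left out the lower count was 1 to 3. All genes called were 4633, and 7080 with limma voom. Between PF+MBV and PF livers, the 0 lower became 1 with limma voom and 2 with only the groups compared; all genes called were 230, against 665 with DESeq2, 2494 with limma voom, 1119 with only the groups compared and 45 to 689 with each library left out. Between EtOH+MBV and EtOH livers, 0 carboxylesterases were called, and all genes called were 347, against 905 with DESeq2, 143 with limma voom, 205 with the replicate block, 0 with only the groups compared, 180 without the 2 libraries and 8 to 1169 with each library left out. In the interaction, the 0 higher became 1 with DESeq2, 1 with limma voom and 1 without the 2 libraries, and 0 to 1 with each library left out, the 0 lower became 1 without the 2 libraries and 0 to 1 with each left out; all genes called were 530, against 1113 with DESeq2, 1410 with limma voom, 887 without the 2 libraries and 168 to 1088 with each library left out. The cause of these moves was not tested.

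Signs turned in 18 of the log2 fold changes of carboxylesterases, of which 0 passed the edgeR test with all libraries; the farthest from 0 were Ces1e at 0.39 for MBV on ethanol and 0.38 in the interaction. With ethanol, Ces1b gave 0.00423 with DESeq2 size factors, 0.00524 with DESeq2, 0.11 with limma voom, 0.22 without the 2 libraries and −0.19 to 0.21 with each library left out, and Ces2g −0.078 to 0.25. For MBV on ethanol, limma voom gave Ces1d −0.12, Ces1e −0.019 and Ces2a −0.12, leaving out the 2 libraries gave Ces1d −0.38, Ces1e −0.25 and Ces2a −0.22, no filter gave Ces2c 0.00705, only the groups compared gave Ces2c 7.1e-05, the replicate block gave Ces1c 0.028, and leaving out each library gave Ces1c −0.25 to 0.14, Ces1d −0.24 to 0.43, Ces1f −0.37 to 0.14, Ces1g −0.33 to 0.094, Ces2a −0.17 to 0.22 and Ces2c −0.18 to 0.12. For MBV on the pair-fed diet, limma voom gave Ces3a 0.00422, and leaving out each library gave Ces1c −0.011 to 0.068, Ces1e −0.019 to 0.041, Ces2c −0.41 to 0.11 and Ces3a −0.15 to 0.058. For the diet with MBV, Ces1d was −0.017 without the 2 libraries and −0.029 to 0.17 with each left out. In the interaction, limma voom gave Ces1e −0.039 and Ces2c −0.047, leaving out the 2 libraries gave Ces1e −0.26, and leaving out each library gave Ces1c −0.29 to 0.11, Ces1f −0.42 to 0.10 and Ces2c −0.11 to 0.41.

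Libraries with the same repeat number did not deviate together (r from −0.12 to 0.17, over 0.1 in 3 of 24 pairs, and 2 of 16 libraries matched best with their own number), so the replicate block is a fit on shared numbers only.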
